A study of Canis lupus familiaris with 8 samples.

Results

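The genes described here carry the machinery that reads mRNA into protein, namely the initiation factors eIF1 to eIF6, the elongation and termination factors, and the aminoacyl-tRNA synthetases. They were chosen by gene symbol alone (symbols beginning with EIF and a digit, EEF1 or EEF2, ETF1, GSPT and EPRS, and the synthetase symbols ending in ARS, ARS1 or ARS2), with every probe set of a gene kept. This gave 120 probe sets of 69 genes, out of 23836 tested probe sets. Of the tested probe sets, 10549 carry the symbol of 1 gene, 138 carry several symbols and 13149 have none in the array annotation used here, so a factor without a named probe set was not analysed. Of the genes sought by role, EEF1A2, EEF2, EEF2K, EIF4G1, EIF4A1, EIF2AK2, EIF2AK3, EIF2B5 and ETF1 had no probe set of their own.

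Left ventricular RNA was measured in 4 dogs with diabetes mellitus (DM dogs 0292, 0294, 1087 and 1111) and 4 control dogs (D5, D6, D7 and D8), each on its own Affymetrix Canine Genome Array. The DM dogs were male mongrel dogs of 23 to 27 kg that received 40 to 60 mg/kg of alloxan, a toxin of the pancreatic beta cells, by vein. Some of them were injected again when glucose stayed low, and they entered the group with a fasting blood glucose over 200 mg/dl on day 7. The control dogs were male mongrel dogs of the same weight range without alloxan, and no vehicle injection is stated for them. All dogs had been instrumented by surgery, and the DM hearts were taken 4 weeks after alloxan. The comparison asks how the left ventricle differs in mRNA levels 4 weeks after the loss of insulin secretion, here for the genes of translation. Values are normalized log2 signals and differences are log2 fold changes of DM minus control dogs, so a difference of 1 is a 2-fold one.

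Translation starts when eIF2 carries the initiator tRNA to the small ribosomal subunit, while eIF3 holds that subunit open and the eIF4 factors bring in the capped mRNA. Stress kinases phosphorylate the alpha subunit of eIF2 and so block its recycling by eIF2B, and the mTOR pathway frees the cap-binding protein eIF4E from its binding proteins. The synthetases load each tRNA with its amino acid, elongation factor 1 brings the loaded tRNA to the ribosome, and a second set of synthetases serves the mitochondria. Insulin is a known stimulus of these steps in the heart, and protein synthesis of cardiac muscle is known to fall when insulin is lacking.

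The arrays differed in more than these genes. The hybridization controls, RNAs added before hybridization, had a mean log2 deposited signal of 16.32 ± 1.05 in DM arrays and 13.88 ± 1.27 in control arrays (SD, n = 4 each, exact permutation p = 0.0571, two-sided), and control dog D8 lay among the DM dogs at 15.77. A dog's mean correlation with the other dogs of its group over all tested probe sets was 0.549 to 0.656 in DM dogs and 0.776 to 0.865 in control dogs, lowest for 0292 and D8. The tissue label was borne out by MYH7, ACTC1 and MYL2, genes of the cardiac sarcomere, which each had a probe set above 99% of all tested ones. Each marker was counted at 1 probe set, for the cardiomyocyte genes the brightest. Of 10 cardiomyocyte markers 7 were found, and at these probe sets 0 were higher and 7 lower in DM dogs (median -3.94). Their summed level was 16.02 to 16.92 in DM dogs and 17.28 to 18.55 in control dogs. The exact permutation p was 0.0286, the smallest that 4 against 4 can give. Among dimmer probe sets of these genes, not counted here, those of MYL2 and MB had lower means in DM dogs. Those of TNNI3 and MYL3 had higher means, and those of MYH7 went both ways. All 6 macrophage and monocyte markers were found, 4 higher and 2 lower (median 1.02), with a summed level of 14.13 to 16.18 in DM dogs and 11.86 to 13.17 in control dogs (exact permutation p = 0.0286). The summed levels of the endothelial, fibroblast, smooth muscle, other leukocyte and adipocyte markers overlapped between the groups, with exact permutation p between 0.343 and 0.886. No tested probe set carried the symbol of HBB, HBA1 or ALAS2 in the annotation used here, so red blood cells were not assessed. The part of these cell markers and of the array controls in the results below was not tested, and in bulk tissue fewer cells of a type and less RNA per cell cannot be told apart. No scan date was given, and an effect of array batches, had they followed the groups, and the effect of diabetes cannot be told apart.

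Of the 120 probe sets, 47 were higher and 73 lower in DM dogs, with a median of -0.23, against 12371 higher and 11465 lower and a median of 0.06 over all tested probe sets. With the probe set of highest mean signal for each gene, 22 genes were higher and 47 lower, with a median of -0.43. The same count was not made over all genes of the array. In the brightest of 5 equal classes by mean signal 57.5% of all tested probe sets were lower, and in the next 63.7%. No probe set of these genes passed an adjusted p of 0.05 in limma, where 0.0168% of all tested probe sets did. At an unadjusted limma p under 0.05, 11 probe sets of 10 genes were higher and 13 of 11 genes lower, which is 9.17% and 10.8% of the 120, beside 7.79% and 8.97% of all tested probe sets. By the methods' t-test, run here in its plain form with equal variances on these normalized signals, without variance stabilization or RMA, and asking for a nominal P no larger than 0.01 together with a 2-fold difference or more, 4 were higher and 3 lower, beside 2.44% and 2.48% of all. Every DM dog lay above every control dog in 8 probe sets and below in 10, beside 4.93% and 5.87% of all. All these shares were near the background of the array. None of the 120 probe sets is therefore reported as changed, and the values below are given with their errors as a description of these 8 dogs.

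**Figure D1:**
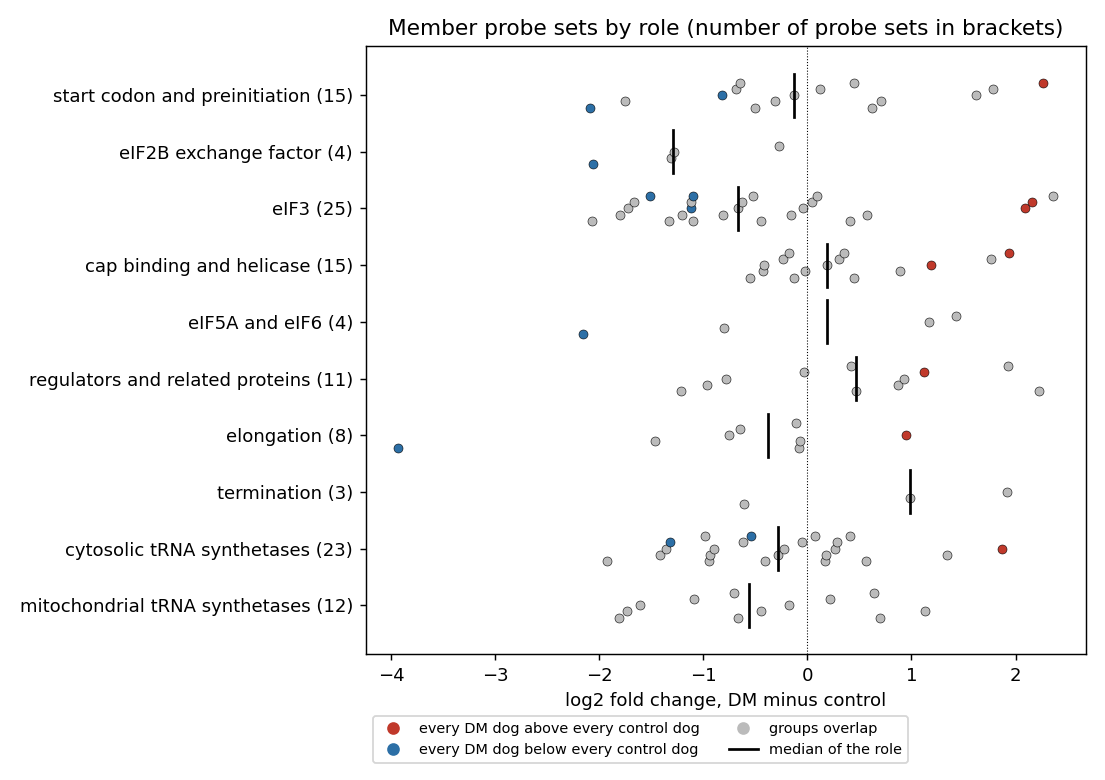
Log2 fold change, DM minus control dogs, of each of the 120 probe sets in rows by role, with red points where every DM dog lay above every control dog, blue points where every DM dog lay below, grey points where the groups overlapped, and a black line at the median of the role. The eIF2B and eIF3 rows have their medians at -1.30 and -0.67, and the point farthest from 0 is EEF1G at -3.93.

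The factors of the start codon and the preinitiation complex had 15 probe sets of 9 genes, 7 higher and 8 lower in DM dogs (median -0.13). This median was above 0 with cyclic loess (0.29) and without 0294 (0.07). EIF2S1 (probe set 1604055_at), the alpha subunit of eIF2 that carries the regulatory phosphorylation site, had 9.64, 6.29, 9.37 and 10.33 in DM dogs 0292, 0294, 1087 and 1111, against 11.03, 11.21, 11.30 and 10.46 in control dogs D5, D6, D7 and D8. Every DM dog lay below every control dog, with 0294 far below the other DM dogs, and the difference was -2.09 (SE 0.81, limma adjusted p = 0.222), or -1.22 without 0294. The beta subunit gene EIF2S2 had 11.56, 10.55, 10.86 and 11.56 in DM dogs and 11.96, 12.02, 12.02 and 11.82 in control dogs at its brightest probe set, again without overlap, a difference of -0.82 (SE 0.55, limma adjusted p = 0.483). Its other probe sets differed by -1.75 and -0.13 with overlap. The gamma subunit gene EIF2S3 was slightly higher in DM dogs at both probe sets, by 0.12 and 0.62, with overlap.

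EIF5B, the GTPase that joins the ribosomal subunits, was the brightest probe set higher in DM dogs. At that probe set, 1604313_at, it had 15.54, 15.32, 15.16 and 15.08 in DM dogs, against 12.38, 11.99, 13.20 and 14.49 in control dogs, a difference of 2.26 (SE 0.65, limma adjusted p = 0.123). The DM dogs lay within a narrow band, while D8 stood nearer to them than to the other control dogs. Its other, dimmer probe set differed by 0.45 (SE 0.65) with overlap. EIF2A, a separate protein that can bring initiator tRNA to the ribosome, had 10.62, 13.40, 12.81 and 12.53 in DM dogs and 10.06, 9.85, 10.24 and 12.74 in control dogs (difference 1.62, SE 0.81, limma adjusted p = 0.332). Here D8 lay with 3 of the DM dogs, and 0292 lay just above the other control dogs. EIF1B, a relative of EIF1, had 7.34, 13.48, 13.16 and 13.09 in DM dogs and 10.23, 10.23, 10.85 and 12.94 in control dogs, and a difference of 0.70 (SE 1.21). D8 again lay beside 3 DM dogs, and 0292 lay below every control dog. EIF1, which guards the choice of the start codon, differed by -0.69 at its brightest probe set and by -0.50 and 1.78 at the others. EIF5, which triggers the GTPase of eIF2, and EIF2D differed by -0.32 and -0.65, all with overlap.

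Of eIF2B, the exchange factor that recharges eIF2 with GTP, 2 subunit genes were measured, and all 4 probe sets were lower in DM dogs (median -1.30). EIF2B4 (1587973_s_at), the delta subunit gene, had 5.23, 9.19, 8.05 and 9.46 in DM dogs and 10.32, 10.02, 10.20 and 9.62 in control dogs. The groups did not overlap, though 1111 lay close under D8, and the difference was -2.06 (SE 0.84, limma adjusted p = 0.245), or -1.23 without 0292, the lowest dog. The gamma subunit gene EIF2B3 differed by -1.31, -1.28 and -0.27 at its 3 probe sets. At each of them at least 1 DM dog lay above the control dogs, and its DM values at a single probe set spread from 5.21 to 11.34 while the control values kept between 8.45 and 8.86. The eIF2B median was below 0 in each of the 16 other settings tried, from -1.82 without 1111 to -0.65 without 0294. These settings use the same dogs. Relative to the control mean, the median over the 4 probe sets was -2.93 in 0294 and -1.95 in 1087, but 0.03 in both 0292 and 1111.

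The eIF3 complex, the largest initiation factor, had 25 probe sets of 12 subunit genes, 7 higher and 18 lower in DM dogs (median -0.67). With 1 probe set for each gene, the brightest, 11 of the 12 subunit genes were lower (median -1.10) and 1, EIF3A, was higher. Without 0292 these probe sets of EIF3D, EIF3M and EIF3J were at 0.03, 0.31 and 0.32, so that their sign came from 1 dog. The eIF3 median was below 0 in all 16 other settings as well, where it ranged from -1.27 with scaling to the hybridization controls to -0.56 without D7. EIF3A, the large scaffold subunit, was higher at both of its probe sets. The first, 1588841_at, had 11.73, 12.05, 11.88 and 11.56 in DM dogs and 9.39, 9.51, 9.50 and 10.48 in control dogs, a difference of 2.09 (SE 0.56, limma adjusted p = 0.104). The second, 1606087_at, had 14.34, 12.99, 12.63 and 12.46 in DM dogs and 10.17, 9.79, 10.56 and 12.48 in control dogs, a difference of 2.36 (SE 0.72, limma adjusted p = 0.139). The groups were apart at the first probe set and touched at the second, where D8 was level with the lowest DM dog.

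Among the lower subunits, EIF3K (1586729_s_at) had 8.79, 10.03, 10.33 and 10.36 in DM dogs and 11.82, 11.55, 11.49 and 10.69 in control dogs at the probe set that moved most (difference -1.51, SE 0.60, limma adjusted p = 0.235). EIF3L (1583504_at) had 10.69, 10.18, 10.57 and 11.21 in DM dogs and 11.64, 12.17, 11.71 and 11.54 in control dogs (difference -1.10, SE 0.55, limma adjusted p = 0.337). EIF3D (1585257_at), a subunit that can itself bind the mRNA cap, had 7.50, 7.16, 6.91 and 7.16 in DM dogs and 8.54, 8.58, 8.47 and 7.63 in control dogs at 1 probe set (difference -1.12, SE 0.55, limma adjusted p = 0.327). In these 3 no DM dog reached a control dog, and the distance to D8 was the smallest in each. EIF3M was lower by 1.67 (SE 0.66, limma adjusted p = 0.231) at a dim probe set and differed by -0.04 at a bright one. EIF3H, EIF3G, EIF3I and both probe sets of EIF3F differed by -2.07, -1.80, -1.33, -1.21 and -1.12 with overlap between the groups. EIF3E differed by -1.72 and -0.44 at its 2 probe sets, also with overlap, and the first became -0.88 without 0292. EIF3J, a loosely bound subunit, differed by -0.16 and 0.57.

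The genes with several eIF3 probe sets did not all give 1 answer. EIF3B, a scaffold subunit, was higher by 2.15 (SE 0.65, limma adjusted p = 0.137) at probe set 1591884_at, with 7.97, 6.13, 6.26 and 8.31 in DM dogs and 4.88, 5.26, 4.96 and 4.96 in control dogs. The control values there were near the lowest signals on the array. At the brightest EIF3B probe set the difference was -0.63 (SE 0.62), and at the remaining pair it was -0.52 and 0.40. EIF3K differed by -1.51, -0.81, -0.67 and 0.09, and EIF3D by -1.12, -1.10 and 0.05, with the value nearest 0 at a dim probe set in each case. The EIF3D value of -1.10 became 0.03 without 0292.

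**Figure D2:**
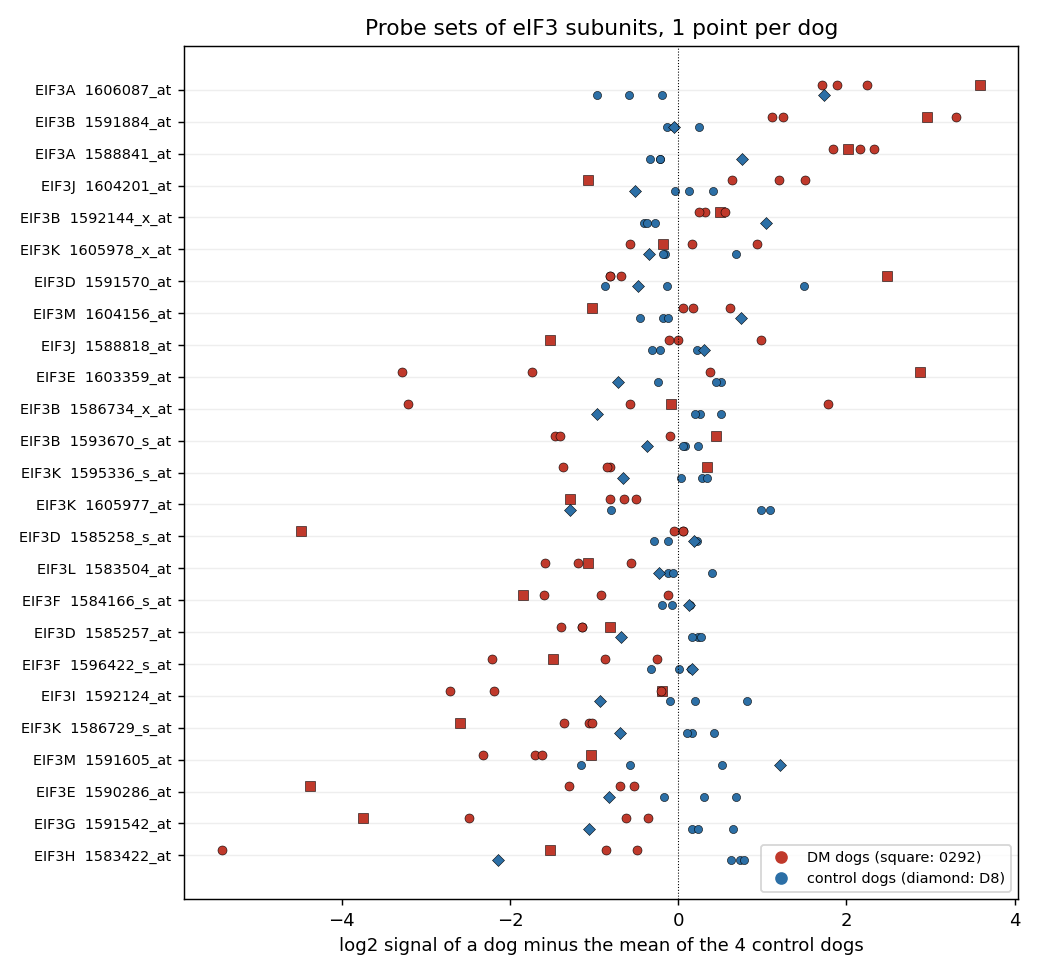
Log2 signal of each dog minus the mean of the 4 control dogs for the 25 probe sets of eIF3 subunits, with DM dogs in red (0292 as a square) above control dogs in blue (D8 as a diamond) in each row. In the 2 EIF3A rows and the top EIF3B row the DM dogs lie to the right, and in most rows of the lower part they lie to the left, with a wider spread than the control dogs.

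The cap-binding and helicase group had 15 probe sets of 7 genes, 8 higher and 7 lower (median 0.19). EIF4E, the cap-binding protein, had 10.53, 11.68, 11.20 and 11.42 in DM dogs and 11.17, 11.17, 11.14 and 11.46 in control dogs at its bright probe set, a difference of -0.02 (SE 0.55, limma adjusted p = 0.988). At a dim probe set it differed by -0.13 (SE 0.74). The groups overlapped at both, and neither value was larger than the spread between dogs. EIF4A2 (1588242_at), a helicase that unwinds the mRNA leader, had 8.95, 9.72, 9.46 and 9.01 in DM dogs and 8.06, 8.07, 7.95 and 8.30 in control dogs at 1 probe set (difference 1.19, SE 0.54, limma adjusted p = 0.291). Every DM dog was above every control dog there, while the brighter EIF4A2 probe set differed by -0.43 (SE 0.56) with overlap.

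EIF4G3 (1591364_at), a scaffold that links the cap-binding protein to the helicase, had 8.02, 6.06, 7.43 and 5.43 in DM dogs and 4.67, 4.71, 5.06 and 4.74 in control dogs at a dim probe set (difference 1.94, SE 0.66, limma adjusted p = 0.177). At its brighter probe set the difference was 0.45 (SE 0.60) and the groups overlapped. EIF4B, which stimulates the helicase, differed by 1.76 (SE 0.68, limma adjusted p = 0.218) and 0.35. EIF4G2, a relative of the scaffold that does not bind the cap-binding protein, differed by -0.55 at the brightest of the 120 probe sets and by 0.89 at the other. The 4 probe sets of EIF4A3, the helicase of the exon junction complex, lay between -0.41 and 0.30, and EIF4H differed by -0.18. The median of this group was below 0 without 0294 (-0.17) and without D8 (-0.03).

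EIF6 (1583155_at), which keeps the large ribosomal subunit from joining too early, had 4.80, 5.01, 7.38 and 7.62 in DM dogs and 8.09, 8.71, 8.84 and 7.79 in control dogs, without overlap (difference -2.16, SE 0.75, limma adjusted p = 0.180). The DM dogs formed a dim pair, 0292 and 0294, and a pair just under D8. Its other probe set differed by -0.80 with overlap. EIF5A, which relieves stalled ribosomes, had 4.69, 7.30, 8.24 and 4.65 in DM dogs and 4.74, 4.79, 4.90 and 4.73 in control dogs, so that 0294 and 1087 lay above all other dogs (difference 1.43, SE 0.81). Its relative EIF5A2 differed by 1.17 (SE 0.58, limma adjusted p = 0.328).

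The kinases, binding proteins and related genes had 11 probe sets of 7 genes, 7 higher and 4 lower (median 0.46). EIF2AK1 (1590952_at), the kinase of eIF2 that responds to lack of heme, had 8.03, 5.01, 8.49 and 8.40 in DM dogs and 5.25, 5.32, 4.99 and 6.66 in control dogs (difference 1.92, SE 0.81, limma adjusted p = 0.254). DM dogs 0292, 1087 and 1111 lay above all control dogs and 0294 lay among them, and without 0294 the difference was 2.73. EIF2AK4, the kinase that senses amino acid shortage, had 10.01, 7.82, 10.23 and 9.47 in DM dogs and 8.71, 8.71, 9.00 and 9.43 in control dogs (difference 0.42, SE 0.65). EIF4EBP1, a binding protein that holds eIF4E when mTOR is inactive, had 4.81, 7.13, 6.33 and 9.37 in DM dogs and 8.09, 9.09, 8.89 and 6.42 in control dogs (difference -1.21, SE 0.92, limma adjusted p = 0.540). The groups overlapped in both genes, 1111 being the highest and 0292 the lowest dog for EIF4EBP1. The related EIF4EBP2 and EIF4EBP3 differed by 0.93 and -0.97 with overlap. EIF4ENIF1, which carries eIF4E into the nucleus, differed by 2.22 (SE 0.80, limma adjusted p = 0.192) at a dim probe set and by -0.03 at a brighter one. EIF1AD, a protein with a domain like that of eIF1A, differed by 1.12, 0.87, 0.46 and -0.78, and only the first was without overlap.

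Among the elongation factors, with 8 probe sets of 5 genes, 1 higher and 7 lower (median -0.38, from -0.86 without D8 to -0.24 without D5), EEF1G had the largest difference and the smallest adjusted p of all 120 probe sets. A further probe set that carries the EEF1G symbol beside others was outside the choice of probe sets, and its values are not given here. EEF1G (1583611_at), read at 1 probe set, is the gamma subunit of the complex that recharges elongation factor 1 with GTP. It had 7.55, 8.88, 7.83 and 10.15 in DM dogs, against 13.18, 13.22, 12.80 and 10.91 in control dogs. The deposited signals were 382, 492, 235 and 1071 in DM dogs and 9029, 8599, 7195 and 1875 in control dogs. No DM dog reached a control dog, but D8 lay nearer to 1111 than to the other control dogs. The difference was -3.93 (SE 0.76, limma adjusted p = 0.0607), which is 15.2-fold lower in DM dogs. Without D8 the difference was -4.46 (SE 0.73) and the limma adjusted p was 0.0299, and without 1111 it was -4.35 with an adjusted p of 0.0266. D8 and 1111 lay nearest to the other group, so leaving out either widens the difference by that choice. Without 0292 the difference was -3.78 (SE 0.78, limma adjusted p = 0.0804). The adjusted p stayed above 0.05 when any dog other than D8 or 1111 was left out.

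The difference of EEF1G from the other subunits of the same complex was not tested. EEF1B2, the beta subunit gene, had 12.64, 12.91, 12.69 and 13.59 in DM dogs and 13.39, 13.49, 12.78 and 12.61 in control dogs at its brighter probe set, and differed by -0.11 and -0.07. EEF1D, the delta subunit gene, differed by -1.46 (SE 0.75, limma adjusted p = 0.351) and -0.64, with D8 below at least 1 DM dog at both probe sets. Without D8 these values were -2.12 (SE 0.68, limma adjusted p = 0.142) and -1.59 (SE 0.93), while those of EEF1B2 were -0.26 and -0.19. EEF1A1, the factor that delivers the loaded tRNA, had 11.92, 11.27, 11.43 and 11.20 in DM dogs and 10.56, 10.12, 10.48 and 10.88 in control dogs at its bright probe set. There every DM dog was above every control dog (difference 0.95, SE 0.55, limma adjusted p = 0.405), a direction that turned to -0.13, relative to the shift of all probe sets, when the arrays were scaled to the hybridization controls. Its dim probe set had 6.73, 4.87, 5.45 and 7.43 in DM dogs and 7.52, 7.81, 7.44 and 4.71 in control dogs (difference -0.75, SE 0.82). EEF1E1, a protein named for elongation that belongs to the multi-synthetase complex, differed by -0.08.

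**Figure D3:**
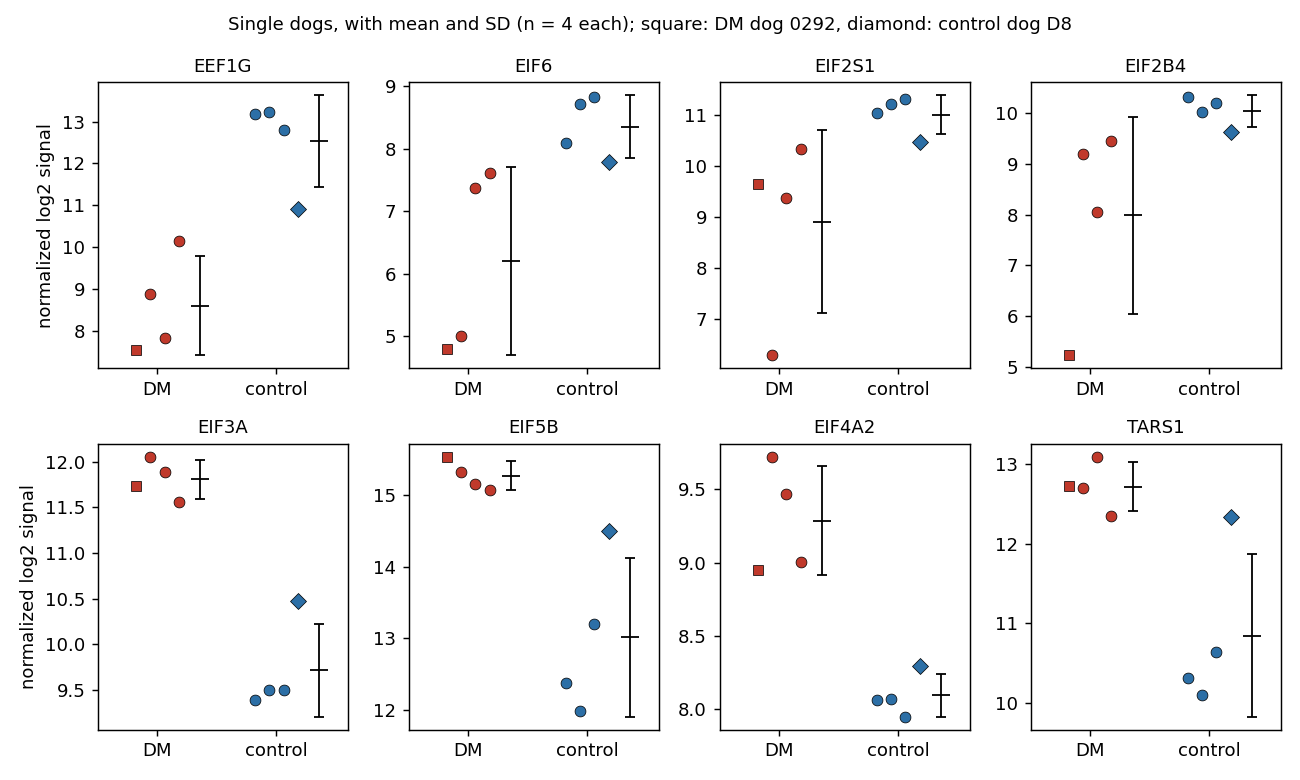
Normalized log2 signal of 8 probe sets in each DM dog (red, 0292 as a square) and each control dog (blue, D8 as a diamond), with the mean and SD of each group beside the points (n = 4 each), the probe set of smallest limma p for each gene, and a separate log2 scale in each panel. EEF1G, EIF6, EIF2S1 and EIF2B4 lie lower in every DM dog, EIF3A, EIF5B, EIF4A2 and TARS1 lie higher in every DM dog, and D8 is the control dog nearest to the DM dogs in each panel.

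Termination was covered by GSPT1 and GSPT2, the GTPases that work with the release factor. GSPT1 (1600894_at) had 5.82, 10.67, 11.33 and 10.79 in DM dogs and 10.00, 10.18, 10.13 and 10.75 in control dogs. The difference was -0.61 (SE 1.02, limma adjusted p = 0.802) with 0292 and 0.72 without it, so that the sign came from 1 dog. GSPT2 differed by 1.92 (SE 0.80, limma adjusted p = 0.252) and 0.99 (SE 0.61) at its 2 probe sets, with overlap.

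The cytosolic tRNA synthetases had 23 probe sets of 15 genes, 9 higher and 14 lower (median -0.28). TARS1 (1590012_s_at), the threonine enzyme, had 12.73, 12.70, 13.09 and 12.34 in DM dogs and 10.31, 10.10, 10.64 and 12.33 in control dogs, a difference of 1.87 (SE 0.64, limma adjusted p = 0.174). The DM dogs were close together and D8 was level with the lowest of them. KARS1 (1583411_at), the lysine enzyme, had 12.38, 12.97, 13.09 and 12.96 in DM dogs and 13.27, 13.48, 13.24 and 13.58 in control dogs at its bright probe set. The groups did not overlap, but the difference was small (-0.54, SE 0.54, limma adjusted p = 0.650), and a dim KARS1 probe set differed by 0.57. SARS1 (1602740_s_at), the serine enzyme, had 8.24, 9.20, 9.97 and 9.83 in DM dogs and 10.67, 11.04, 10.76 and 10.04 in control dogs at the brightest of its 5 probe sets, without overlap (difference -1.32, SE 0.61, limma adjusted p = 0.294). Its other probe sets differed by -1.92, -1.36, -0.05 and 0.17.

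EPRS1, the joint glutamate and proline enzyme, had 8.50, 5.52, 8.67 and 9.15 in DM dogs and 8.83, 8.84, 8.59 and 8.05 in control dogs at the brighter probe set. It differed by -0.62 (SE 0.78) there and by -0.40 (SE 0.83) at the other, both with overlap. The single probe sets of VARS1, YARS1, IARS1, AARS1 and WARS1, for valine, tyrosine, isoleucine, alanine and tryptophan, differed by -1.42, -0.95, -0.93, -0.28 and -0.23. Those of MARS1, RARS1, NARS1 and LARS1, for methionine, arginine, asparagine and leucine, differed by 0.18, 0.27, 0.28 and 0.41. All overlapped, and their limma adjusted p lay between 0.344 and 0.910. CARS1 and QARS1, for cysteine and glutamine, each had a lower probe set (-0.98 and -0.90) and a dimmer higher one (1.34 and 0.07). The median of this group ranged from -0.80 without D8 to -0.05 without 0294.

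The mitochondrial tRNA synthetases had 12 probe sets of 7 genes, 4 higher and 8 lower (median -0.56, from -0.77 without D8 to -0.28 without 0294), and no probe set was free of overlap. VARS2, the mitochondrial valine enzyme, was the lowest of them. It had 7.03, 5.05, 5.05 and 4.56 in DM dogs and 7.73, 6.97, 7.44 and 6.80 in control dogs at 1 probe set (difference -1.81, SE 0.66, limma adjusted p = 0.196) and 7.61, 6.06, 5.73 and 8.55 in DM dogs and 8.57, 8.71, 9.47 and 8.14 in control dogs at the other (difference -1.73, SE 0.71, limma adjusted p = 0.247). The overlap came from 0292 at the first and from 1111 at the second. WARS2, the tryptophan enzyme, had 5.91, 6.41, 5.52 and 4.68 in DM dogs and 7.63, 6.37, 6.90 and 8.03 in control dogs (difference -1.61, SE 0.63, limma adjusted p = 0.229), and -0.67 at its other probe set. LARS2, the leucine enzyme, differed by -0.70, 0.21 and 1.13 at 3 dim probe sets, and no single direction can be given for it. CARS2 differed by -1.09 and -0.45, HARS2 by -0.18, IARS2 by 0.64 and AARS2 by 0.70, all with overlap.

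Several probe sets on this array read the same gene, which gives a check within the arrays. Counting only probe sets with the symbol of 1 gene, 34 of the 69 genes, EEF1G among them, had 1 and 35 had 2 to 5. Of these 35, all probe sets of a gene pointed the same way in 19 (6 higher and 13 lower), and 16 had probe sets in both directions. Genes with both probe sets at least 1 log2 away from 0 on the same side were EIF3A, EIF3F and VARS2. EIF1, EIF3B, EIF4ENIF1 and CARS1 had the widest disagreement among those on both sides of 0, and the highest value of each was at a probe set dimmer than its brightest. Probe sets with the ending _s_at (26 of the 120) or _x_at (6) can read more than 1 transcript by the design of the array, and the probe sets of EIF2S2 and EIF4B with the smallest p in their gene end in _x_at.

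**Figure D4:**
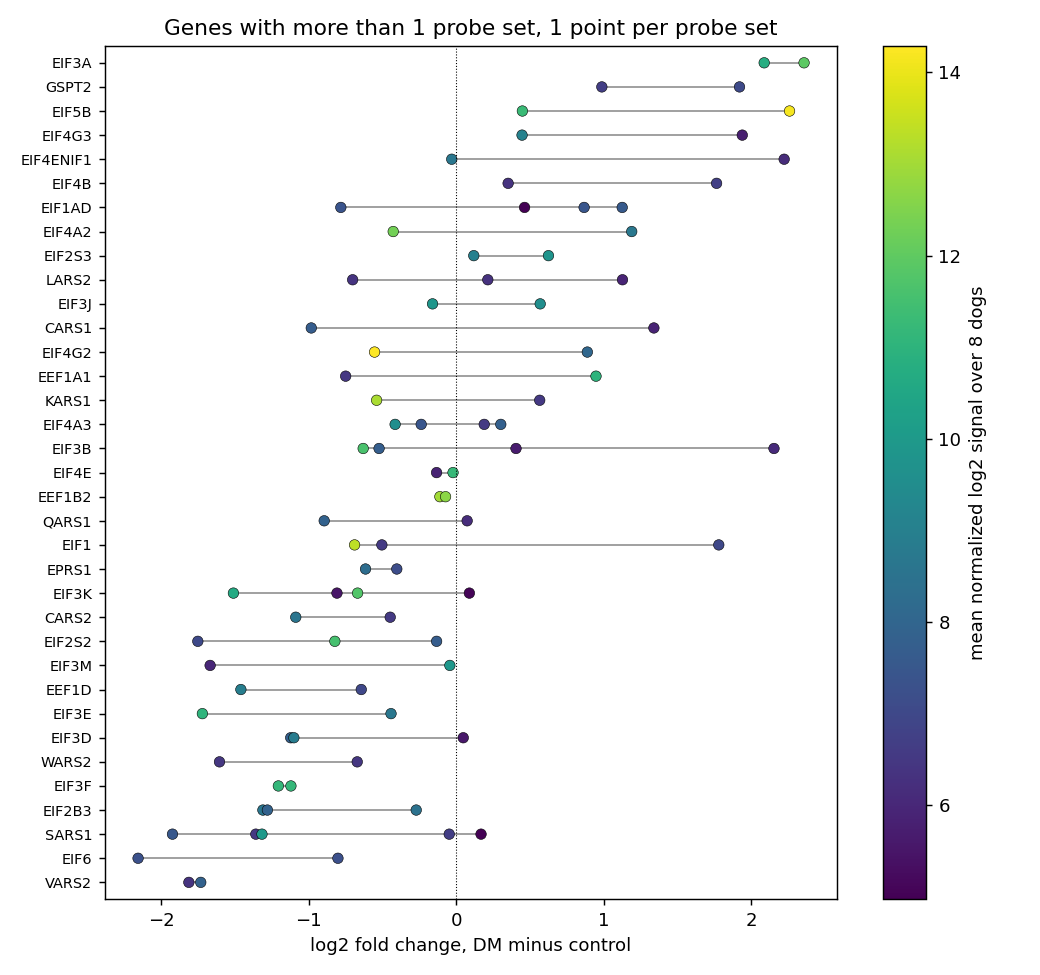
Log2 fold change, DM minus control dogs, of each probe set of the 35 genes with more than 1 probe set, 1 row per gene, with the colour of a point giving its mean normalized log2 signal over the 8 dogs. The points of EIF3A lie together at the right and those of VARS2 at the left, while EIF3B and EIF1 span both sides of 0 with dim points at the right.

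The direction of a probe set went with its level. In the dimmest of 5 equal classes by mean signal the median was 0.40 for the 13 probe sets of these genes and 0.47 for all tested ones, and in the next it was 0.07 (19 probe sets) and 0.35. In the remaining, brighter classes, of 14, 28 and 46 probe sets, the medians were -0.65, -0.57 and -0.17, against -0.07, -0.36 and -0.26 for all tested probe sets. Of the 120 probe sets 46 were thus in the brightest class, where their median was nearer 0 than that of all tested ones. DM dogs also varied more than control dogs. The median SD was 1.08 in DM dogs and 0.50 in control dogs, and the SD was larger in DM dogs in 92 of the 120 probe sets (76.7%), as in 76.9% of all tested probe sets.

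**Figure D5:**
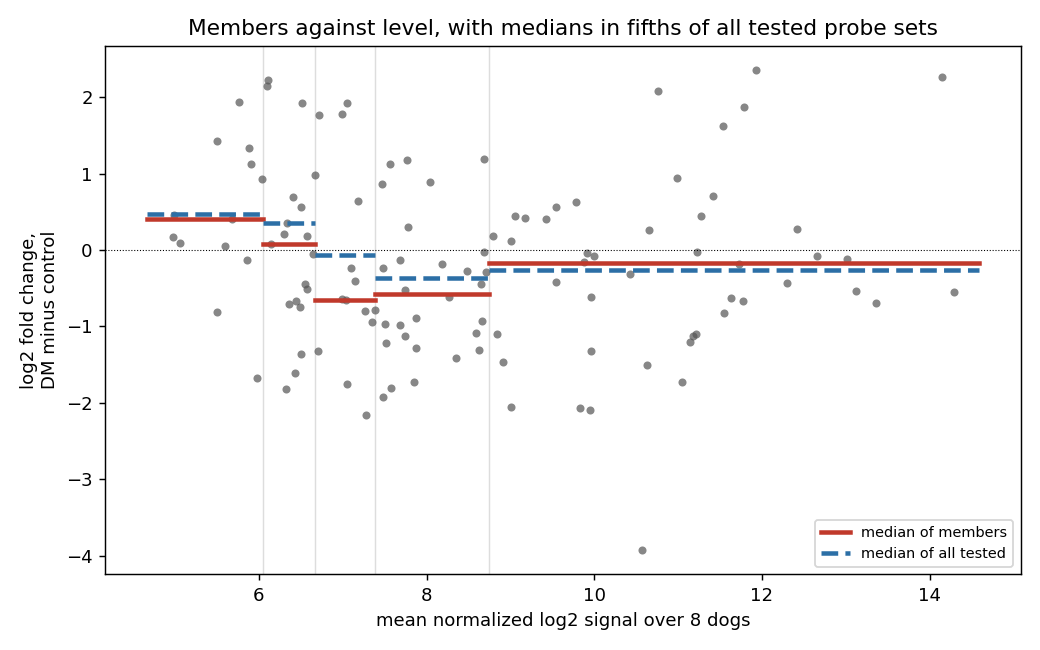
Log2 fold change, DM minus control dogs, of the 120 probe sets against their mean normalized log2 signal over the 8 dogs, with grey vertical lines between the 5 classes of all tested probe sets and horizontal lines at the median of the 120 (red) and of all tested probe sets (blue, dashed) in each class. Both medians are above 0 in the 2 dimmest classes and below 0 in the others.

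Genes of the same pathways that the symbols above do not cover were read from lists, and again none passed an adjusted p of 0.05. Of a list for the integrated stress response, the reaction to phosphorylated eIF2, 5 of 11 genes were found with 6 probe sets, 3 higher and 3 lower (median 0.09). The effector of this response, ATF4, differed by -0.70 (SE 0.61) and its target ASNS by -1.65 (SE 0.83). PPP1R15A, of the same list, was higher at both probe sets, by 0.25 (SE 0.55) and 1.11 (SE 0.59). The groups overlapped in all of these. The list also held XBP1 (-0.06) and HSPA5, genes of endoplasmic reticulum stress that are not specific to phosphorylated eIF2. The chaperone gene HSPA5 had 7.87, 6.91, 8.52 and 6.83 in DM dogs and 4.60, 5.68, 4.82 and 6.32 in control dogs (difference 2.18, limma adjusted p = 0.134). Of the mTOR pathway to eIF4E, 9 of 15 genes were found with 18 probe sets, 10 higher and 8 lower (median 0.06). TSC2, a brake on mTOR, differed by -2.69 (limma adjusted p = 0.0962), and RHEB, an activator of mTOR, by -3.00 and -1.61. On the higher side, the kinase gene AKT2 differed by 1.95 (limma adjusted p = 0.213) at 1 probe set, and RPS6KB1, a kinase downstream of mTOR, by 2.15 (limma adjusted p = 0.275) at 1 probe set and by -1.07 at another. Of the other synthetase genes and the scaffold of the multi-synthetase complex, 3 of 6 were found with 5 probe sets, 2 higher and 3 lower (median -2.10). The phenylalanine synthetase gene FARSB, whose symbol the choice above does not take in, was lower at both probe sets. It had 9.87, 9.69, 9.88 and 10.28 in DM dogs and 12.08, 12.32, 12.12 and 11.62 in control dogs at 1 of them, and differed by -2.10 (SE 0.54, limma adjusted p = 0.0987) there and by -3.40 (SE 0.72, limma adjusted p = 0.0711) at the other. The groups were well apart at both, with D8 the lowest control dog. AIMP2, of that scaffold, differed by -2.21 (SE 0.88, limma adjusted p = 0.236), and PSTK, a kinase that acts on the tRNA of selenocysteine, by 0.93 and 0.57, all with overlap.

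Of the mitochondrial translation factors 6 of 9 genes were found with 9 probe sets, 3 higher and 6 lower (median -0.30). TUFM, the mitochondrial elongation factor that delivers tRNA, had 6.76, 4.83, 8.15 and 6.66 in DM dogs and 9.43, 9.49, 9.02 and 9.33 in control dogs (difference -2.72, SE 0.70, limma adjusted p = 0.0987), with D8 at the level of the other control dogs. MTIF3 differed by 2.05 (SE 0.83, limma adjusted p = 0.239) without overlap at 1 probe set and by -1.24 at the other. With overlap, MTIF2 differed by 1.43 (limma adjusted p = 0.273) and GFM1 by -2.08 (limma adjusted p = 0.245). Partners and recycling factors had 21 probe sets of 8 of 11 genes, 14 higher and 7 lower (median 0.43). PAIP2, an inhibitor of the poly(A)-binding protein, had 12.89, 13.75, 13.66 and 13.10 in DM dogs and 9.74, 9.52, 10.52 and 12.43 in control dogs (difference 2.79, SE 0.70, limma adjusted p = 0.0943). The groups did not overlap, and D8 lay nearer to the DM dogs. Its other, dim probe set differed by 0.0060 (SE 0.78) with overlap.

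Control dog D8 recurred in these comparisons. In 15 of the 18 probe sets without overlap (6 of 8 higher, 9 of 10 lower) D8 lay on the side of the DM dogs relative to the mean of D5, D6 and D7, which is 83.3%. Over all tested probe sets without overlap this held for 1701 of 2572 (66.1%), 722 of 1174 higher and 979 of 1398 lower. Without D8, 0 probe sets were higher and 1 lower (EEF1G) at a limma adjusted p of 0.05, beside 0.399% and 0.818% of all tested probe sets. Without D8 and 0292, a comparison added after the data were seen, 6 were higher and 2 lower, beside 1.94% in either direction. The higher ones were EIF1B (2.90), EIF2A (3.01), EIF5B (2.43), TARS1 (2.47) and both probe sets of EIF3A (2.54 and 2.66), with limma adjusted p between 0.0261 and 0.0428, and the lower ones EEF1G (-4.36, adjusted p = 0.0258) and VARS2 (-2.40, adjusted p = 0.0376). These 2 dogs were left out because their arrays correlated least with their groups, and the shares with all 8 dogs are those given first. Leaving out the least similar dog of each group lowers the spread within groups by the choice itself. The adjusted p without D8 and 0292 are therefore no evidence of a change.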

How the data were processed

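The authors used MAS 5.0 to turn each scan into intensities of probe sets, and the deposited intensities are linear, scaled by the authors to a mean of 500 after trimming 2% at either end. The RMA step and the variance stabilization that the methods name were not applied here, and detection calls were not used. Leaving out 77 control probe sets, 23836 were tested. Quantile normalization of the arrays came first, then an offset of 16 (which understates changes of dim probe sets) and log2. The test of DM against control dogs was that of limma 3.58.1 (R 4.3.3), two-sided, and Benjamini-Hochberg adjustment covered all tested probe sets. Single array measures were compared by exact permutation over 70 assignments. Gene symbols are those of the array annotation, and 114 of the 120 gene identifiers were found in RefSeq with the same symbol. The 120 probe sets, the lists and the rule for named genes were chosen with earlier results of these data known. Named were factors taken by role, the 8 largest positive and negative limma t, the smallest p of each role, and genes with 3 or more probe sets. EIF2A, EIF1B and other genes outside this rule were chosen after their values were seen. Dogs are the replicates, and 4 per group limit the precision. The steps were tested on simulated data. The alternatives were 4 scalings, 2 offsets, a filter on dim probe sets, 1 probe set per gene, the methods' t-test and leaving out dogs.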

Additional observations from a re-analysis of the deposited data

Results flagged for a closer look

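In each group of 4 dogs the highest or lowest dog was set against the others. Of 76 groups examined, 6 held a dog whose gap to the nearest other dog took up more of the range than Dixon's critical value allows, where chance gives about 5% of groups, and 4 of the 6 were control dog D8. D8 had the highest hybridization control signal of the control dogs, 15.77 beside 13.09 to 13.36. It had the lowest EEF1A1 value at the dim probe set, 4.71 beside 7.44 to 7.81. D8 also had the highest EIF4E value at the bright probe set, 11.46 beside 11.14 to 11.17, and the highest EIF3A value at the first probe set, 10.48 beside 9.39 to 9.51. Among DM dogs, 0294 had the lowest EIF2AK1 value, 5.01 beside 8.03 to 8.49, and 0292 the lowest GSPT1 value, 5.82 beside 10.67 to 11.33.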

How the results depend on the processing

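No paired analysis was possible because the dogs carry no shared replicate numbers. The scalings moved the median of all tested probe sets from 0.06 to 0.34 with no quantile normalization, -0.19 with median centring, 0.02 with cyclic loess and -1.65 with scaling to the hybridization controls, and values under those that moved it by over 0.1 are relative to this shift. The median of the 120 probe sets, -0.23, became -0.40 with no quantile normalization, -0.48 with median centring and -0.59 with hybridization control scaling. With dim probe sets left out it was -0.42 over the 104 kept, beside -0.12 over all 17877 kept, and was not made relative. It was -0.43 with 1 probe set per gene and -0.16 without D8 and 0292. Leaving out 1 dog it was -0.36 (without D8) to -0.12 (without 0292). The count at an adjusted p under 0.05, 0 at first, was 1 with median centring, 59 (all lower) with hybridization control scaling, 2 with an offset of 64, 8 without D8 and 0292, and 0 to 1 leaving out 1 dog (EEF1G without D8 or without 1111). Over all 23836 these counts were 4 at first, then 353, 7675, 442 and 924, with 290 without D8 and 421 without 1111. The methods' t-test gave 0 after adjustment. By the criteria of the methods, the 4 higher became 2 with median centring, 0 with hybridization control scaling and 8 without D8 and 0292. With 1 probe set per gene, a count not made over all genes of the array, they were 1 of 69. Leaving out 1 dog they were 2 to 6. The 3 lower became 5 with cyclic loess, 9 with hybridization control scaling, 6 without D8 and 0292 and 0 to 6 leaving out 1 dog. Over all tested probe sets the 581 higher and 591 lower by these criteria became 313 and 666 with median centring and 750 and 593 with cyclic loess. They became 22 and 2574 with hybridization control scaling, and 1092 and 832 without D8 and 0292. Leaving out 1 dog they were 323 to 742 higher and 279 to 993 lower. Without overlap, the 8 higher became 0 with hybridization control scaling and 25 without D8 and 0292. They were 4 of 69 with 1 probe set per gene and 8 to 14 leaving out 1 dog. The 10 lower became 6 with median centring, 27 without D8 and 0292 and 10 to 21 leaving out 1 dog. Over all tested probe sets the 1174 higher and 1398 lower became 30 and 4010 with hybridization control scaling and 720 and 1310 with median centring. They became 3552 and 3667 without D8 and 0292. Leaving out 1 dog they were 1395 to 2206 higher and 1540 to 2784 lower. Fewer dogs overlap less by construction, and the cause of the other changes was not tested.

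Of the 37 probe sets named by role, largest t or smallest p, 10 changed sign somewhere. Probe sets named only because their gene had 3 or more are not in these counts. Some of those changed sign too, such as the EIF2B3 probe set nearest 0, at -1.26 to 0.79 leaving out 1 dog. The other EIF2B3 probe sets stayed below 0. With cyclic loess the bright EIF4E probe set was at 0.16. With hybridization control scaling EIF2AK4 was at -0.10, the bright EEF1A1 probe set at -0.13 and the dim EIF4E one at 0.11. Without D8 and 0292, GSPT1 was at 0.90, the second EIF6 probe set at 0.22, the dim KARS1 one at -0.057 and the bright EIF4E one at 0.30. Leaving out 1 dog, the ranges were -1.01 to 0.21 and -0.999 to 0.36 for the brighter and dimmer EPRS1 probe sets, -0.24 to 0.80 for the LARS2 probe set nearest 0, -0.58 to 0.31 for the dim and -0.18 to 0.22 for the bright EIF4E probe set, -1.19 to 0.72 for GSPT1 and -0.070 to 1.34 for the dim KARS1 probe set. Of the 621 values of these 37 probe sets under the alternatives, 573 kept their sign and their side of the threshold. A further 26 newly passed it and 22 changed sign.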
